A study of Arabidopsis thaliana with 24 samples.

Results

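The red light response that remains when phytochromes A and B are both missing was read from 6 Affymetrix arrays of phyAphyB mutant seedlings, 3 kept in darkness and 3 given 1 h of red light, out of 24 arrays in the series. The arrays were chosen by their labels alone, and every probe set other than the manufacturer's controls was considered, 15085 of 22746 being bright enough to test. Arabidopsis thaliana seedlings, 4 days old and grown in darkness, were taken whole, with root, hypocotyl and cotyledon together. Red light was continuous, at 680 nm and 8 µmol per square metre per second. The other groups used here were wild type, the phyA mutant and the phyB mutant, each with 3 dark and 3 red biological replicates. All groups therefore shared the dark growth and the age, and differed in genotype and in the final hour of light. No allele or parental strain is named in the labels, and PHYA and PHYB themselves were not analysed here, so the genotype labels could not be checked on the mutated genes.

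Phytochromes are plant photoreceptors that switch between a red-absorbing and a far-red-absorbing form. Red light makes the active form, which enters the nucleus and triggers the removal of PIFs, the bHLH transcription factors that drive growth genes in darkness. phyA is abundant in dark-grown seedlings and is degraded in light, phyB is the main red light receptor of light-grown plants, and the genes for phyC, phyD and phyE are separate loci that these mutations leave in place. Seedlings that emerge from darkness stop rapid hypocotyl elongation, turn on photosynthesis genes and green.

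On the linear MAS5 signal scale the 6 phyAphyB arrays had median signals between 169.8 and 193.3, within the range of 169.8 to 195.1 over all 24 arrays. Each correlated with the other arrays of its own group at 0.975 to 0.981 (mean Pearson correlation of log2 signals over probe sets), against 0.954 to 0.981 over the series. The 25S ribosomal RNA control gave signals of 198, 146 and 116 on the dark and 269, 294 and 417 on the red phyAphyB arrays, so the groups did not overlap on it. It lay between 46.8 and 450.0 on 22 arrays and at 10508 and 13574 on the dark phyA replicates 2 and 3. Its part in the results was not tested. Here, a change is red minus dark in log2 signal with its standard error from the limma fit to all 24 arrays, n is 3 arrays per group, p-values are limma's with Benjamini-Hochberg adjustment over the 15085 probe sets, and a probe set was called where that adjusted p was under 0.05.

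In phyAphyB 1 h of red light lowered 42 probe sets and raised 4. Those 46 calls were 0.305% of the probe sets tested (0.278% lower and 0.0265% higher). Among them 15 fell and 2 rose by at least 2-fold (0.0994% and 0.0133%). The same light changed 973 probe sets in wild type (6.45%), 655 in phyA (4.34%) and 867 in phyB (5.75%), and there the calls leaned the other way, with 612 higher (4.06%) and 361 lower (2.39%) in wild type. At an unadjusted p under 0.05, 739 probe sets passed in phyAphyB (4.9%), about the share that this threshold lets through when nothing changes. The 42 falls were spread over bright and dim probe sets, and on 38 of them all 6 arrays read above the array's own 40th percentile of signal. On all 42 every red array lay below every dark array, an order that 6% of the tested probe sets showed. Calls made from the same arrays favour that order, so it adds no support. Of the 42 probe sets 14 are paired with 1 gene and 28 with none in the annotation used, and of the 4 higher ones 1 has a gene. In whole seedlings, fewer cells of a type and less RNA per cell cannot be told apart. The count was 24 when the spread came from the 6 phyAphyB arrays alone, 107 with array weights, and between 24 and 31 when 1 phyAphyB array was left out. The fewest, 24, came without dark replicate 1, followed by 25, 26 and 27 without red replicates 1, 2 and 3, 30 without dark replicate 3 and 31 without dark replicate 2.

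The largest falls among bright genes were those of AT5G02580 and IAA29. AT5G02580 read 2772, 2009 and 2226 on the dark arrays and 909, 554 and 757 on the red ones. All red signals were under the lowest dark one by a wide margin, and the gene fell by 1.67 ± 0.18 log2 units (adjusted p = 2.3e-05). IAA29 encodes an Aux/IAA protein of the auxin response that is known as a PIF target. Its signals were 893, 863 and 987 in the dark and 273, 308 and 296 in red, with the arrays of each light close to each other. It fell by 1.64 ± 0.20 log2 units (adjusted p = 0.00023). The wild type changes of these genes were -2.42 ± 0.18 and -2.62 ± 0.20. The difference from wild type did not pass for AT5G02580 (0.75 ± 0.25, adjusted p = 0.17) nor for IAA29 (0.97 ± 0.29, adjusted p = 0.099). That p was 0.01 for IAA29 with the compared groups alone and 0.04 with array weights, and 0.046 for AT5G02580 without phyAphyB red replicate 2. Among the named genes, these were the ones whose fall passed in all 6 fits that left out 1 phyAphyB array and in all 9 other settings.

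EXO (EXORDIUM), a cell wall protein gene induced by brassinosteroids and tied to cell expansion, had the brightest signal of the named falls. It read 7567, 7072 and 6544 in the dark and 3711, 4185 and 3881 in red. The gene fell by 0.85 ± 0.15 log2 units (adjusted p = 0.0058), and without dark replicate 1 the fall missed the threshold (adjusted p = 0.054). In wild type EXO read 3138, 3266 and 4195 in the dark and 565, 618 and 682 in red, a change of -2.50 ± 0.15. The signals of phyAphyB after red light thus lay inside the range of wild type before light. The fall was smaller in phyAphyB by 1.65 ± 0.21 against wild type (adjusted p = 1.7e-05), 1.69 ± 0.21 against phyA (0.00021) and 1.41 ± 0.21 against phyB (0.00017). The dark level was higher in phyAphyB than in wild type by 1.01 ± 0.15 (adjusted p = 3.2e-05), a comparison that uses the same dark arrays as the response. Of all tested probe sets 11.2% differed in the dark between these genotypes, 5.73% higher and 5.5% lower in phyAphyB.

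Falls of an intermediate size were found for AT4G35720, AT5G57760, AT4G16670 and AT3G17120, for which no role is given here. AT4G35720 read 987, 898 and 1016 in the dark and 445, 549.9 and 498 in red. It fell by 0.96 ± 0.18 log2 units (adjusted p = 0.01), where wild type changed by -1.92 ± 0.18. That difference of 0.96 ± 0.25 sat at the threshold without passing (adjusted p = 0.05), and was between 0.0036 and 0.043 in 4 of the 9 other settings (array weights, the compared groups alone, the 60th percentile filter and quantile normalization) and 0.038 and 0.047 without wild type dark replicate 1 and red replicate 3. AT5G57760 read 1328, 803 and 657 and then 421, 387 and 506, and fell by 1.03 ± 0.21 log2 units (adjusted p = 0.022). Its dark replicate 1 stood well above the other dark arrays, yet each red array was below each dark one. AT4G16670, at 1189, 1178 and 1301 and 594, 807 and 646, fell by 0.85 ± 0.16 log2 units (adjusted p = 0.0093). AT3G17120, at 321, 329.6 and 354 and 181, 180.5 and 194, fell by 0.86 ± 0.18 log2 units (adjusted p = 0.033) with very close arrays within each light. Wild type changes were -1.44 ± 0.21 for AT5G57760, -1.57 ± 0.16 for AT4G16670 and -0.96 ± 0.18 for AT3G17120. These calls depended on single arrays. AT4G35720 missed the threshold without dark replicates 1 and 3 or red replicates 1 and 3, each left out in turn (adjusted p between 0.051 and 0.096), AT5G57760 without dark replicates 1 and 2 or red replicates 1 and 2, each left out in turn (adjusted p between 0.051 and 0.31), and AT4G16670 without dark replicate 3 or red replicates 1 and 3, each left out in turn (adjusted p between 0.061 and 0.096). AT3G17120 missed it without any 1 of the 6 arrays (adjusted p between 0.11 and 0.16) and with no filter (0.068). AT5G57760 also missed it with the compared groups alone (0.14) and without the intensity trend (0.061).

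The smaller falls took in P1R3, AT5G66590, AT5G02550 and AT4G25280. AT5G66590 encodes a protein of the CAP family, which holds the PR-1 pathogenesis-related proteins. Its signals were 1901, 1753 and 2080.2 in the dark and 1465, 1005 and 1052 in red, and it fell by 0.72 ± 0.14 log2 units (adjusted p = 0.016). P1R3 read 899, 616 and 862 and then 433, 389 and 514 and fell by 0.82 ± 0.17 log2 units (adjusted p = 0.033). AT5G02550, at 628, 703 and 506 and 340.3, 364 and 422, fell by 0.70 ± 0.15 log2 units (adjusted p = 0.039). AT4G25280, at 993, 962 and 1039.9 and 584, 614 and 659, fell by 0.69 ± 0.13 log2 units (adjusted p = 0.012). In each of these 4 the dark and red arrays did not overlap, as in all 42 called falls. The wild type changes were -1.26 ± 0.17 for P1R3, -1.17 ± 0.14 for AT5G66590, -0.94 ± 0.15 for AT5G02550 and -0.93 ± 0.13 for AT4G25280. None of the 4 differed from wild type at the threshold (adjusted p between 0.43 and 0.85). Dark levels in phyAphyB were above wild type by 0.65 ± 0.14 for AT5G66590 (adjusted p = 0.0028) and by 0.53 ± 0.13 for AT4G25280 (0.0082, 0.079 without wild type dark replicate 1 and 0.055 with the compared groups alone). P1R3 missed the threshold without dark replicates 1 and 3 or red replicates 1 and 2, each left out in turn (adjusted p between 0.15 and 0.32), AT5G66590 without dark replicates 1 and 3 or red replicates 2 and 3, each left out in turn (adjusted p between 0.083 and 0.16), AT5G02550 without dark replicates 1 and 2 or red replicates 1, 2 and 3, each left out in turn (adjusted p between 0.057 and 0.34), and AT4G25280 without dark replicates 1 and 3 or red replicates 1 and 2, each left out in turn (adjusted p between 0.063 and 0.095). With the compared groups alone P1R3, AT5G66590 and AT5G02550 missed it too (0.12, 0.13 and 0.16). P1R3 and AT5G02550 also missed it with no filter (0.053 and 0.066) and without the intensity trend (0.069 and 0.061), P1R3 with array weights (0.061), and AT5G02550 without the dark phyA replicates 2 and 3, left out together (0.055).

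**Figure D1:**
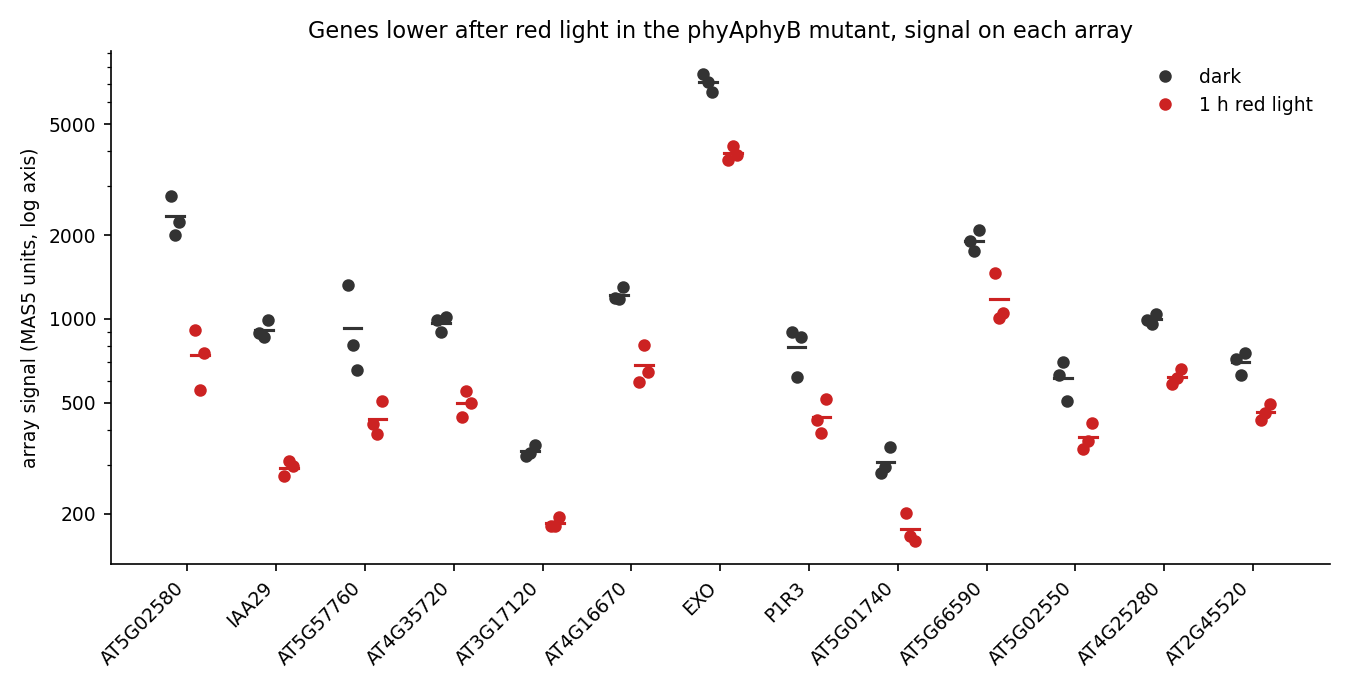
MAS5 signal (log axis) of the 13 called genes that fell in phyAphyB and read above the array's 40th percentile on all 6 arrays. Points are single arrays, black for dark and red for 1 h of red light, and short lines are group means. For every gene the 3 red points lie under the 3 dark points, with the largest drops of the 13 in AT5G02580 and IAA29.

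The falls were largely ones that the other genotypes also made. Of the 42 probe sets, 36 were called lower in wild type (85.7% of the 42 and 9.97% of the 361 falls there), 31 in phyA (73.8% and 10.7% of 291) and 35 in phyB (83.3% and 10.7% of 327). Falls made up 2.39%, 1.93% and 2.17% of all tested probe sets in those genotypes. In all 4 genotypes 29 were called lower. The median change of the 42 was -0.85 in phyAphyB, -1.01 in wild type, -1.0 in phyA and -1.02 in phyB, although choosing them by the phyAphyB change overstates the phyAphyB value. The wild type change was the larger for 26 of them and the phyAphyB change for 16.

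**Figure D2:**
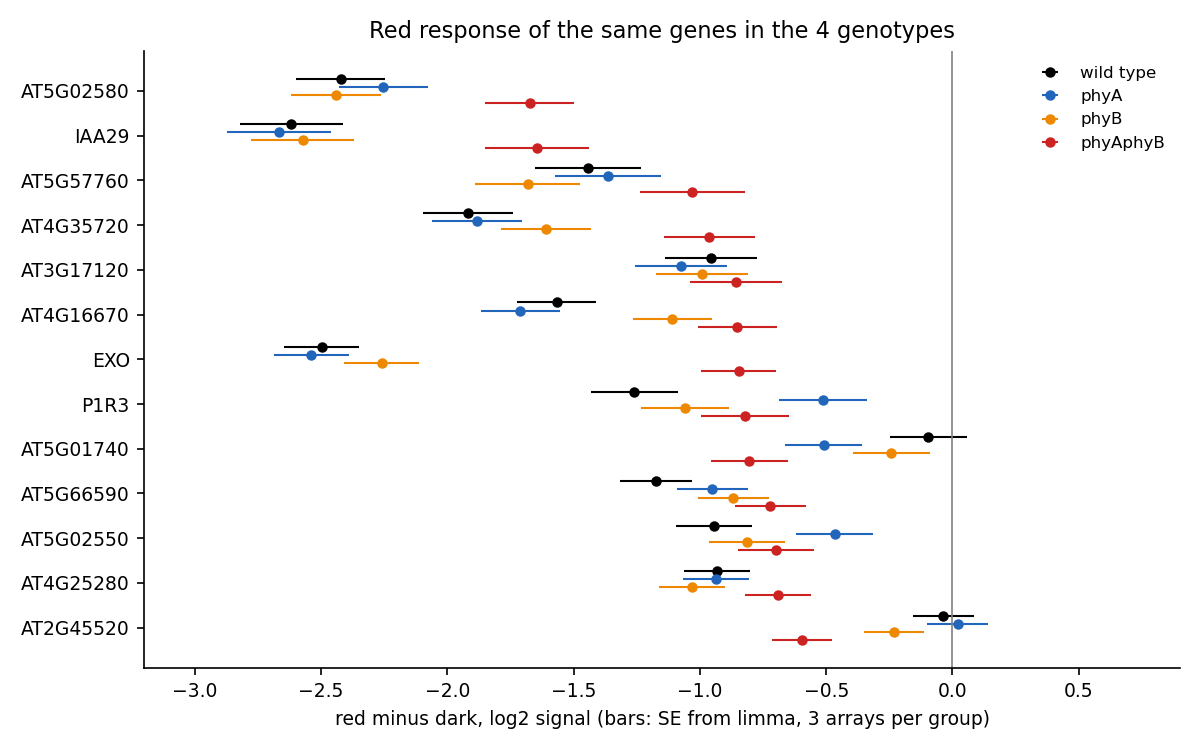
Change of the same 13 genes in wild type, phyA, phyB and phyAphyB, as red minus dark log2 signal with limma standard errors (3 arrays per group). EXO shows the widest step between phyAphyB (-0.85) and the rest, while AT5G01740 and AT2G45520 lie near 0 in wild type.

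Of the 42 falls, 5 were called in none of wild type, phyA and phyB, and 3 of those have a gene. AT5G01740 read 279, 294 and 346 in the dark and 201, 166 and 159.9 in red and fell by 0.81 ± 0.15 log2 units (adjusted p = 0.012), against -0.10 ± 0.15 in wild type. AT2G45520 read 718, 630.4 and 752 and then 434, 459 and 495 and fell by 0.60 ± 0.12 log2 units (adjusted p = 0.022), against -0.036 ± 0.12. In phyA AT5G01740 changed by -0.51 ± 0.15, just short of a call (adjusted p = 0.058), and AT2G45520 by 0.020 ± 0.12 (0.95). Neither difference from wild type passed (-0.71 ± 0.22 and -0.56 ± 0.17, adjusted p = 0.11 and 0.11), so these falls were not shown to be particular to phyAphyB. With array weights both differences passed (0.036 and 0.042). The fall of AT5G01740 missed the threshold without dark replicate 3 or red replicates 2 and 3, each left out in turn (adjusted p between 0.088 and 0.12) and that of AT2G45520 without dark replicates 1 and 3 or red replicates 1 and 2, each left out in turn (adjusted p between 0.11 and 0.15). With the compared groups alone they missed it as well (0.12 and 0.14).

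The other 2 falls called in phyAphyB alone have no gene name, and they were chosen for description after their values were seen. Probe set 252414_at read 454, 442 and 388 in the dark and 286, 276 and 235 in red and fell by 0.69 ± 0.11 log2 units (adjusted p = 0.0021). In wild type the probe set read 424, 431 and 436 and then 489, 496 and 507, a change of 0.21 ± 0.11 that was not called (adjusted p = 0.34), with every red array above every dark one. In phyA 252414_at changed by -0.37 ± 0.11, just short of a call (adjusted p = 0.056), and in phyB by 0.28 ± 0.11 (0.18). The phyAphyB response differed from that of wild type by -0.90 ± 0.16 (adjusted p = 0.001) and from that of phyB by -0.97 ± 0.16 (0.00056), and the difference from phyA did not pass (-0.32 ± 0.16, 0.5). The fall in phyAphyB passed without each phyAphyB array in turn but not with the compared groups alone (0.13), and the differences from wild type and phyB passed in every setting run. Probe set 258239_at read 1626, 1339.5 and 928 and then 444, 612 and 519 and fell by 1.28 ± 0.18 log2 units (adjusted p = 0.00057), a call that passed in every setting run. Its response differed from that of phyB by -1.14 ± 0.25 (adjusted p = 0.015, and 0.057 to 0.06 without phyAphyB dark replicate 1, phyAphyB red replicate 1 or phyB red replicate 3). The probe set changed by -0.41 ± 0.18 in wild type, -0.58 ± 0.18 in phyA and -0.14 ± 0.18 in phyB (adjusted p = 0.22, 0.067 and 0.81). The differences from wild type (-0.87 ± 0.25, 0.088) and phyA (-0.70 ± 0.25, 0.31) did not pass, and that from wild type passed with array weights (0.03) and without phyAphyB dark replicate 3 (0.011).

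AT3G63340 and AT4G01910 were called from signals near the bottom of the scale. AT3G63340 read 30.2, 33.8 and 21.8 in dark and 9.1, 1.5 and 9.5 in red phyAphyB seedlings, all under the 40th percentile of 101 to 119, a log2 change of -2.47 ± 0.41 (adjusted p = 0.0035). In wild type it read between 195 and 298 with a change of 0.26 ± 0.41, and its dark level in phyAphyB was -2.97 ± 0.41 from wild type (adjusted p = 1.5e-05). AT4G01910, the one named gene that rose, read 10.4, 8.1 and 11.7 in the dark and 30.5, 22.5 and 38.2 in red, 1.58 ± 0.23 (adjusted p = 0.00087). In wild type its signals were 259 to 410, and the dark difference was -5.03 ± 0.23 (7.2e-14). Both genes were thus far dimmer in phyAphyB in either light, and at such signals the size of a log2 change is uncertain. As no allele or strain is named, the phytochrome mutations and any other difference between the lines cannot be told apart for these genes. The same limit holds for every comparison between genotypes given here. Both genes were tested only because arrays of other genotypes read above the 40th percentile. Both calls passed without each phyAphyB array, but not with the compared groups alone (adjusted p = 0.9 and 0.92). The fits without 1 phyAphyB array kept the arrays of the other genotypes, so passing in them is weak support.

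The other 3 rises have no gene name. Probe set 256266_at, above the 40th percentile on all arrays, read 773, 748 and 660 in the dark and 1281, 1409.5 and 1598 in red and rose by 0.97 ± 0.15 (adjusted p = 0.0021). It rose by 2.38 ± 0.15 in wild type, and the phyAphyB rise was smaller, with differences of -1.40 against wild type, -1.28 against phyA and -1.19 against phyB (adjusted p = 0.00031, 0.0037 and 0.0026). Probe set 251226_at went from 19.6, 5.1 and 7.7 to 67.3, 62.6 and 70.3, 2.86 ± 0.61 (adjusted p = 0.036), all dim. With every phyAphyB array under the 40th percentile, 251226_at was tested only through arrays of other genotypes. It missed the threshold without dark replicates 2 and 3 or red replicates 1, 2 and 3, each left out in turn (adjusted p between 0.14 and 0.28) and in 6 of the 9 other settings (0.056 to 0.19). The unnamed falls of the largest size were 247052_at, from 188, 228 and 268 to 55.7, 78.1 and 102 (-1.56 ± 0.25, adjusted p = 0.0021), and 251374_at, from 417, 412 and 566 to 165, 202 and 112 (-1.56 ± 0.31, adjusted p = 0.021). The latter missed the threshold without dark replicates 1, 2 and 3 or red replicates 1 and 3, each left out in turn (adjusted p between 0.054 and 0.23) and without the intensity trend (0.061).

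How much of the wild type response was left was described over the 303 probe sets that were called and changed by 2-fold or more in wild type, 229 higher (1.52%) and 74 lower (0.491%). The median share, the phyAphyB log2 change divided by the wild type change, was 12.0% (quartiles 2.29% and 26.0%), and 11.0%, 13.7% and 15.1% when taken from the arrays of replicate number 1, 2 and 3. For the 229 rises it was 9.75%, with 4.62%, 10.4% and 13.3% by replicate number. For the 74 falls it was 33.3%, with 42.8%, 31.0% and 28.6%, each above each value for rises. In phyA the same rises kept 48.9% and the falls 70.4%, and in phyB 88.3% and 83.7%. Choosing probe sets by the wild type change overstates that change, so these shares are descriptions.

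The counts of single probe sets that kept a response were as follows, with no test run between falls and rises. In phyAphyB 22 of the 74 wild type falls were called lower and 2 of the 229 rises called higher. Of all tested probe sets 0.278% were called lower and 0.0265% higher. At least 50% of the wild type change was present for 23 falls (31.1%) and 2 rises (0.873%). The sign was that of wild type in 66 falls (89.2%) and 172 rises (75.1%). The share of rises was much alike for the 51 that reached 4-fold in wild type (9.73%) and the 178 below that (9.81%). The 10 falls of 4-fold or more kept 39.4% and the other 64 kept 32.6%. With dim starting or end levels left out, 164 rises kept 10.6% and 47 falls kept 36.8%.

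**Figure D3:**
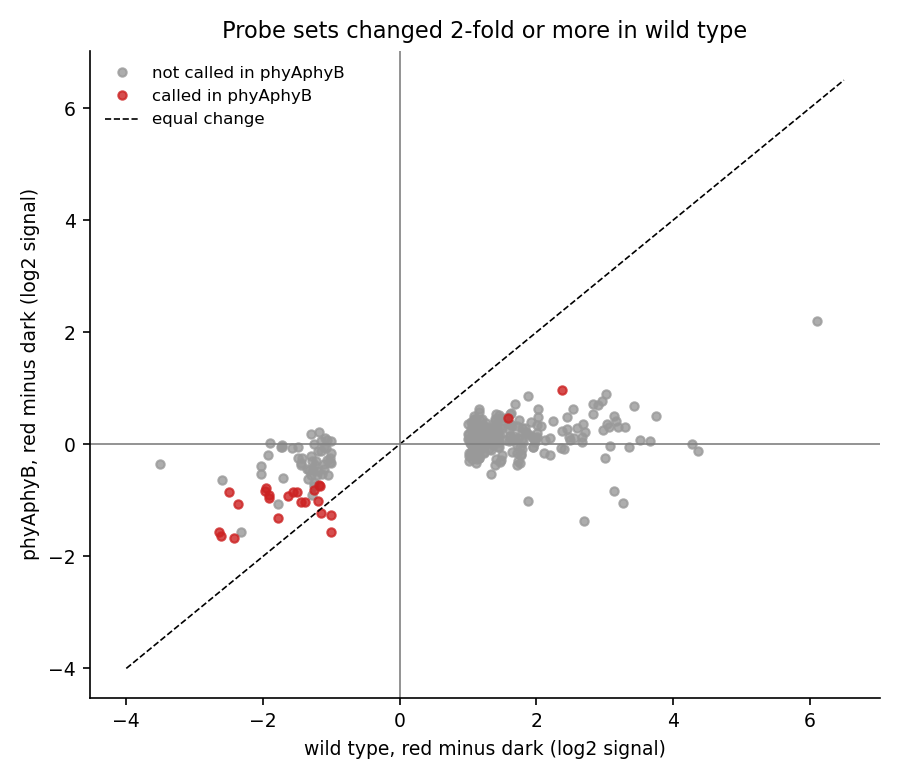
Each point is 1 of the 303 probe sets with a called wild type change of 2-fold or more, placed by its wild type change (x, log2) and its phyAphyB change (y, log2), with calls in phyAphyB in red. The 229 rises have a median phyAphyB change of 0.14, with 172 of them above 0. Of the 24 points called in the wild type direction 22 are falls, most of them between 0 and the dashed line of equal change.

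**Figure D4:**
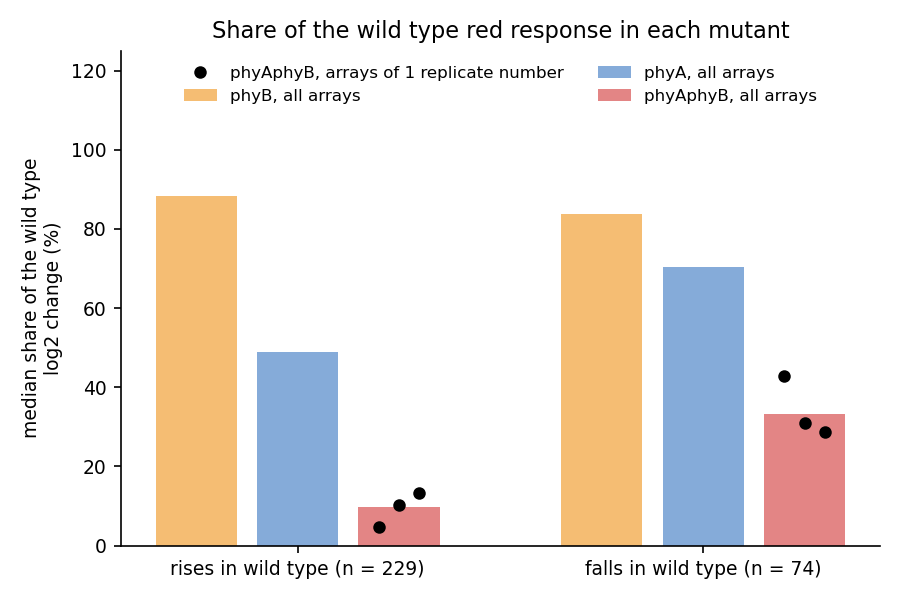
Median share of the wild type log2 change kept in phyB, phyA and phyAphyB (bars, in percent, from 0), for 229 rises and 74 falls of wild type. Black points are phyAphyB shares from the arrays of a single replicate number, 4.62% to 13.3% for rises and 28.6% to 42.8% for falls.

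The genes described next had the largest wild type changes among those whose brighter wild type mean exceeded 409, the median signal of the tested probe sets. Dimmer genes were not taken, such as HYH, a bZIP transcription factor gene of light signalling, which changed by 3.75 ± 0.63 in wild type and 0.51 ± 0.63 in phyAphyB, a difference that did not pass (-3.24 ± 0.90, adjusted p = 0.068). AT5G15950 encodes an S-adenosylmethionine decarboxylase of polyamine synthesis. It rose by 2.25 ± 0.14 in wild type. In phyAphyB it read 599.6, 519 and 592 in the dark and 752, 680.1 and 851 in red, a log2 change of 0.41 ± 0.14 that did not pass (adjusted p = 0.62) although the arrays did not overlap. UGT78D2, a flavonoid glucosyltransferase gene, was at 111, 113 and 79.7 and 106, 75.8 and 114 (-0.04 ± 0.18, against 1.95 ± 0.18 in wild type). The arrays of both lights overlapped there, as they did for AT3G02910, which rose by 3.19 ± 0.23 in wild type and read 199, 232 and 282 and 418, 244 and 243 in phyAphyB. Its red replicate 1 alone stood above the rest.

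AT3G21670, a nitrate transporter gene, changed by 2.2 ± 0.19 in wild type and by -0.20 ± 0.19 in phyAphyB, from 313, 224 and 263 to 180.5, 242 and 282. Glutaredoxin-family genes moved in opposite directions in wild type, AT1G64500 by 2.97 ± 0.20 and AT5G18600 by -1.74 ± 0.20. In phyAphyB AT1G64500 read 68.9, 66.3 and 56.1 and 66.6, 77.8 and 83.4 (0.25 ± 0.20), and AT5G18600 read 1749.6, 1575 and 1605 and 1652, 1239 and 1942 (-0.052 ± 0.20). Neither was called. The dark level of AT5G18600 was below that of wild type by a log2 difference of -1.38 ± 0.20 (adjusted p = 2.9e-05). SNZ, an AP2 transcription factor gene of flowering repression, and AT1G06000, a flavonol rhamnosyltransferase gene, rose by 3.13 ± 0.54 and 3.02 ± 0.33 in wild type. Their changes in phyAphyB were -0.84 ± 0.54 and 0.89 ± 0.33, at dim signals of 55.5, 49.8 and 60.7 against 8.9, 68.3 and 48.5 for SNZ and 16.9, 32.1 and 42.8 against 96, 48 and 32.3 for AT1G06000. The dark level of AT1G06000 in phyAphyB was below that of wild type by a log2 difference of -1.58 (adjusted p = 0.0017). AT4G24700 and AT4G10910, with wild type changes of 1.98 ± 0.22 and -1.72 ± 0.14, stood at 0.041 ± 0.22 and -0.0084 ± 0.14.

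Tested as a difference, the red response of phyAphyB departed from wild type at 282 probe sets (1.87%), with 53 log2 changes higher (0.351%) and 229 lower (1.52%) in phyAphyB. The phyAphyB response departed from that of phyB at 232 (1.54%, with 0.206% higher and 1.33% lower) and from that of phyA at 55 (0.365%, with 0.0663% higher and 0.298% lower). Array weights raised these counts to 578, 418 and 348. Leaving out 1 array gave 40 to 150 differences from phyA, the most without the dark phyA replicate 1.

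The comparison with phyA asks what the added loss of phyB changed where phyA is missing. Other differences between the lines cannot be told apart from that loss. SWEET17, a vacuolar fructose transporter gene, had the largest lower response among called probe sets with 1 gene whose brightest group mean exceeded 409. SWEET17 read 603, 497 and 479 in dark and 490.3, 403 and 409 in red phyAphyB seedlings (-0.28 ± 0.18), while it rose by 1.08 ± 0.18 in phyA. The phyAphyB response was lower by a log2 difference of -1.35 ± 0.25 (adjusted p = 0.0091). In wild type its signals were 144, 129 and 98.2 in the dark and 291, 337 and 401 in red, so phyAphyB exceeded wild type in either light. The dark difference was 2.1 ± 0.18 (adjusted p = 9.3e-09). The response of AT5G15950 differed from phyA by -1.28 ± 0.20 (0.0019), that of AT3G16800, a protein phosphatase gene, by -1.11 ± 0.16 (0.00073), and that of AT4G16980, an arabinogalactan-protein family gene, by -1.13 ± 0.22 (0.015). AT4G16980 too had a higher dark level in phyAphyB than in wild type, by 1.36 (adjusted p = 1e-06), from the same phyAphyB dark arrays as its response. Positive differences after EXO were 1.00 ± 0.22 for AT5G17850, 0.89 ± 0.19 for ARLA1C, an ARF-like GTPase gene, and 0.74 ± 0.14 for AT4G11610 (adjusted p = 0.035, 0.034 and 0.012). Without the dark phyA replicates 2 and 3, whose 25S control was high, SWEET17, AT4G16980, AT5G17850, ARLA1C and AT4G11610 missed the threshold (adjusted p between 0.11 and 0.24). AT5G17850 missed it without 8 and ARLA1C without 9 of the 12 arrays compared, each left out in turn (up to 0.12 and 0.11, both without phyA dark replicate 2). With the compared groups alone AT5G17850, AT4G16980 and AT4G11610 missed it (between 0.059 and 0.12), without the intensity trend AT5G17850 and ARLA1C (0.063 and 0.065), and with no filter AT5G17850 (0.051).

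The comparison with phyB asks what the added loss of phyA changed where phyB is missing, with the same limit. Among genes whose brightest group mean exceeded 409 the largest lower responses were of genes that rose in phyB. AT3G02910 rose by 3.09 ± 0.23 in phyB and its phyAphyB response differed by -2.78 ± 0.32 (adjusted p = 6e-06). AT3G21670, AT1G64500 and AT3G56290 differed by -2.43 ± 0.27, -2.39 ± 0.28 and -2.27 ± 0.42 (adjusted p = 4.2e-06, 7.3e-06 and 0.0029), having risen by 2.23, 2.64 and 2.09 in phyB. Among dimmer genes the response differed by -3.27 ± 0.76 for SNZ (adjusted p = 0.022, and 0.057 to 0.058 without phyAphyB dark replicate 3 or phyB red replicates 1 or 2) and -2.84 ± 0.58 for AT3G63340 (0.0081, and 0.1 with the compared groups alone). In phyAphyB AT3G56290 read 223, 231 and 149 in the dark and 181, 182 and 159.6 in red. The positive differences after EXO, 1.19 ± 0.29 for AT5G18600, 1.16 ± 0.29 for AT3G09160 and 1.15 ± 0.29 for AT5G38710, a proline dehydrogenase gene, passed narrowly (adjusted p = 0.029, 0.036 and 0.041). Each missed the threshold without many of the 12 arrays compared, AT5G18600 without 7 (up to 0.11, phyAphyB red replicate 3), AT3G09160 without 8 (up to 0.13, phyAphyB dark replicate 3) and AT5G38710 without 11 (up to 0.14, phyB red replicate 2). With no filter AT3G09160 and AT5G38710 missed it (0.063 and 0.079), without the intensity trend AT5G18600 and AT3G09160 (0.068 and 0.056), and with the compared groups alone AT5G18600 (0.07). The dark level of AT5G38710 in phyAphyB was above that of wild type by 1.48 (adjusted p = 1.4e-05).

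Lists of growth, hormone, light-signalling and photosynthesis genes and of markers were chosen with earlier results of these data known. The 17 lists held 282 genes, of which 47 had a probe set paired with that gene alone and 43 were tested. In phyAphyB 0 of the 43 were called higher and 2 lower (IAA29 and EXO) by limma, and 41 were not called. Of all probe sets 0.0265% were called higher and 0.278% lower. At an unadjusted p under 0.05 there were 4 higher and 4 lower, where 4.9% of all probe sets passed in either direction. In wild type 4 of them rose and 12 fell, against 4.06% and 2.39% of all probe sets. The median change of the 6 tested genes of auxin response and transport was -0.06 in phyAphyB and -0.71 in wild type, where 4 fell. GH3.3, an auxin-conjugating enzyme gene, read 2038, 2412 and 2399 in the dark and 2278, 2209 and 2079.8 in red, -0.057 ± 0.15. Wild type changed by -1.08 ± 0.15 and the difference passed (1.02 ± 0.21, adjusted p = 0.0061). The dark level of GH3.3 was 1.16 ± 0.15 above wild type (4.8e-06).

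The 3 shade and PIF target genes, all lower in wild type, had a median of -0.12 in phyAphyB with 0 called by limma and 1 lower at an unadjusted p under 0.05 (4.9% of all probe sets in either direction). HAT2, a homeobox gene induced by auxin and shade, read 2413, 2615 and 2798 and 2672, 2267 and 2256, -0.12 ± 0.14 where wild type changed by -0.93 ± 0.14. The difference was 0.80 ± 0.20 (adjusted p = 0.032), and it missed the threshold without wild type dark replicates 2 or 3, wild type red replicates 2 or 3, phyAphyB dark replicates 1 or 2 or phyAphyB red replicate 1 (0.067 to 0.12), and without the intensity trend (0.066). FHL, which carries phyA to the nucleus, did not pass at -0.75 ± 0.19 (adjusted p = 0.16), from 652, 463 and 441 to 217, 323 and 399, close to its wild type change of -0.86 ± 0.19. It passed without red replicate 3 (0.049). The 6 expansin and xyloglucan enzyme genes had a median of -0.10 with 0 called by limma (1 higher at an unadjusted p under 0.05, the level 4.9% of all probe sets passed), and 2 of them fell in wild type.

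Photosynthesis genes gave 0 calls by limma in phyAphyB, and 2 antenna genes were higher at an unadjusted p under 0.05, against 4.9% of all probe sets in either direction. The medians were -0.09 for the 6 chlorophyll synthesis genes, 0.34 for the 3 antenna protein genes and 0.02 for the 4 photosystem and carbon fixation genes, beside -0.01 over all tested probe sets. The antenna genes changed by 0.56 ± 0.19 for LHCB4.2, 0.34 ± 0.16 for LHCB4.3 and 0.087 ± 0.11 for LHCB4.1, none of them called. In the dark LHCB4.1 and LHCB4.2 stood below wild type by log2 differences of -0.88 and -1.73 (adjusted p = 4e-06 and 4.8e-07). GI (GIGANTEA), the 1 circadian clock gene tested, read 826, 972 and 1063 in the dark and 1342, 1286 and 1258 in red. All red arrays exceeded all dark ones, but the change of 0.45 ± 0.13 did not pass (adjusted p = 0.29, and 0.049 with array weights), and wild type rose by 0.87 ± 0.13. The 4 reference genes had a median of -0.05. Of markers for other parts of the seedling or for handling, EXPA18 (root), ICL (seed reserves) and STZ (stress) changed by -0.13, 0.20 and 0.43 without a call, and no member of the photoreceptor and epidermis lists was tested.

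**Figure D5:**
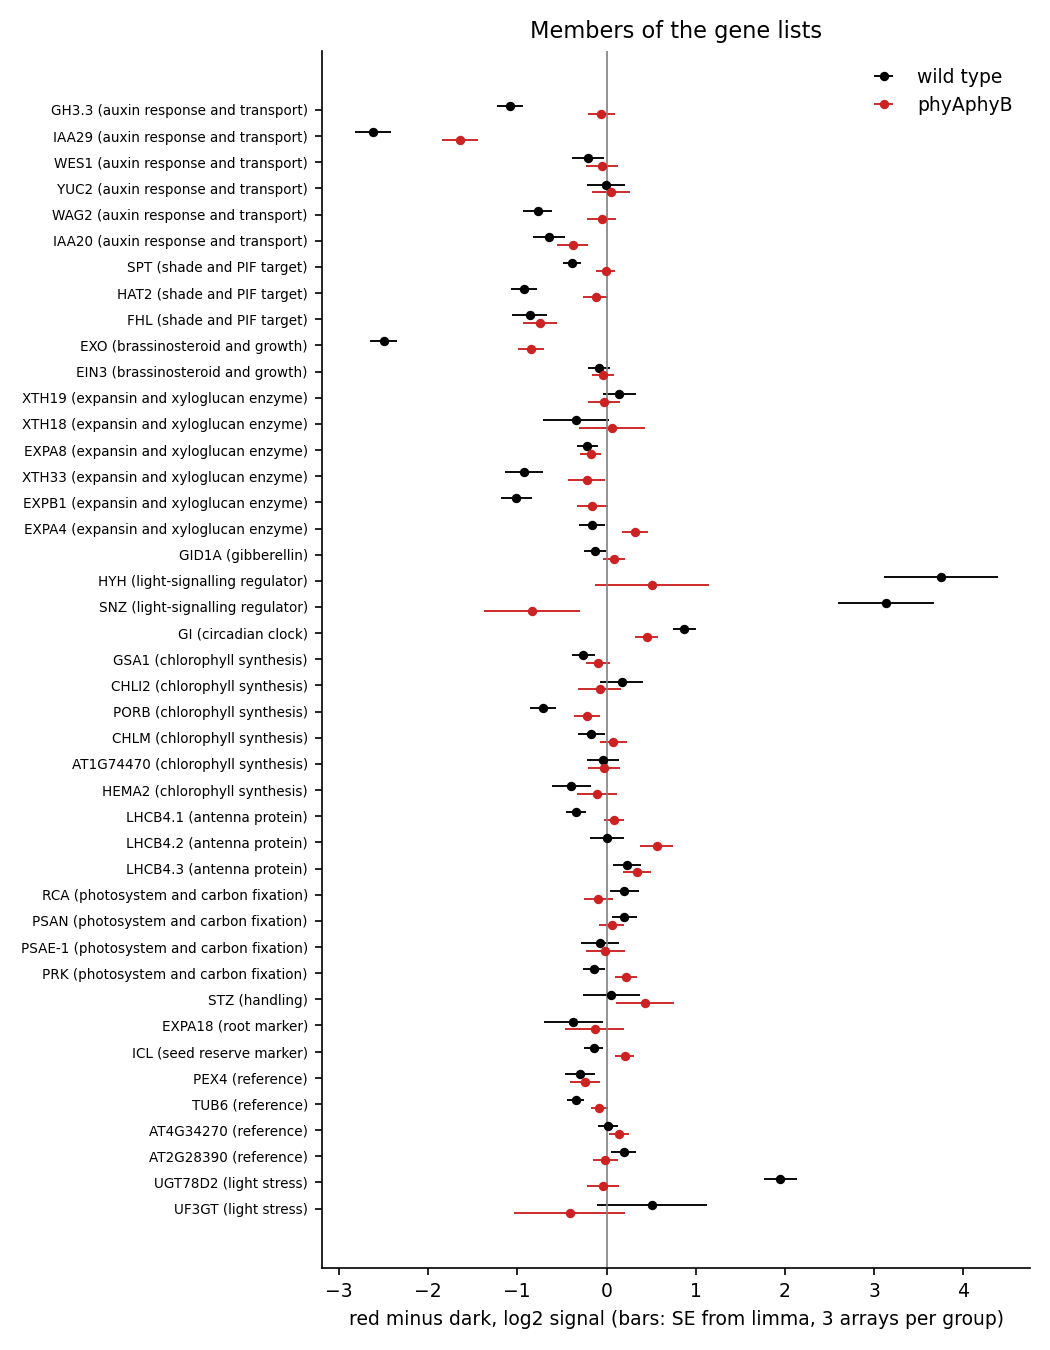
Red minus dark log2 signal of the 43 tested list genes in wild type (black) and phyAphyB (red), with limma standard errors from 3 arrays per group. Most red points lie close to 0, and IAA29 (-1.64) and EXO (-0.85) are the ones called in phyAphyB.

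Beyond the calls, the 6 rises and 6 falls with the lowest p that missed the threshold, among genes whose brighter group mean exceeded 409, all had dark and red arrays that did not overlap, as 4.75% of tested probe sets did upward and 6% downward. Choosing them by p from these same arrays favours such an order, which therefore adds no support. BIM1, a bHLH partner of BES1 in brassinosteroid signalling, read 872, 851 and 820 in the dark and 536, 667 and 579.6 in red, -0.52 ± 0.13 (adjusted p = 0.18, and 0.018 with array weights). Wild type was at 0.30 ± 0.13 without a call (adjusted p = 0.23), while BIM1 fell in phyA (-0.62 ± 0.13, 0.0063) and rose in phyB (0.52 ± 0.13, 0.018). The difference of phyAphyB from wild type was -0.82 ± 0.19 (adjusted p = 0.018) and that from phyB -1.04 ± 0.19 (0.0026). The difference from wild type missed the threshold without wild type dark replicates 2 or 3, wild type red replicates 1 or 2 or phyAphyB red replicate 1 (0.054 to 0.076), and with the compared groups alone (0.054).

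The remaining changes of this kind were AT5G01790 (-0.91 ± 0.21, adjusted p = 0.065), AT3G57800, a bHLH gene (-0.56 ± 0.13, 0.098), AT1G27210 (-0.49 ± 0.13, 0.19) and AT5G02540 (-0.59 ± 0.16, 0.23) downward. AT5G01790 went from 552, 459 and 307 to 195, 258 and 232 and passed without dark replicate 3 (adjusted p = 0.012). Upward they were AT5G65990 (0.53 ± 0.14, 0.18), AT1G21670 (0.49 ± 0.13, 0.25), AT1G27930, an arabinogalactan methyltransferase gene (0.45 ± 0.12, 0.25), AT3G07140 (0.50 ± 0.14, 0.31) and AT2G05920, a subtilase gene (0.36 ± 0.10, 0.25). With array weights AT5G01790, AT3G57800, AT5G02540 and AT5G65990 passed (adjusted p between 0.0028 and 0.04).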

How the data were processed

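The deposited values are intensity values, linear MAS5 signals with a single value for each probe set on each array, made by the authors with the Affymetrix MAS5 algorithm per the submitters' processing notes, with no version given. Means of the signal trimmed by 2% at both ends ran from 500.038 to 500.044, so the values were kept as scaled. That scaling sets every array to the same mean, and low MAS5 signals are noisy once logged. The 64 control probe sets were left out, and tests were limited to probe sets with 3 or more of the 24 arrays above their own 40th percentile. The log2 of the deposited signal was taken with no pseudocount.

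Means of the 8 groups were fitted jointly (limma 3.58.1, R 4.3.3, eBayes with an intensity trend, two-sided, Benjamini-Hochberg). The procedure was also run on simulated data with independent noise. Those data had no effects shared by an array, so the run does not measure false calls in the real arrays. Contrasts were red minus dark, its difference between genotypes, and the dark level. Replicates are biological per the labels, and p-values measure the spread between these samples. The number of arrays limits the precision.

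The comparison, the gene lists and the naming rule were chosen with earlier results of these data known. Named were all calls with 1 gene, the 6 near misses of lowest p in each direction, the 8 largest rises and 6 largest falls called in wild type with no overlap of arrays, and the 4 largest called differences from phyA and from phyB in each direction, all but the calls restricted to probe sets with 1 gene whose brightest compared group mean exceeded 409, the median signal of the tested probe sets. Also named were list genes that were called, and at most 2 unnamed probe sets in each direction. Names come from the platform annotation, updated through the TAIR10.1 gene table, and no coordinates are given. Counts over promoter motifs were planned and not run. Alternatives were quantile normalization, no filter, a 60th percentile filter, a pseudocount of 10.1, no trend, the compared groups alone, a replicate block, array weights, the fit without 2 arrays of high 25S signal, and each array left out in turn. For single genes in the differences from phyA and phyB and in the dark level, and for 2 unnamed probe sets outside the rule, these alternatives were chosen after seeing the data.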

Additional observations from a re-analysis of the deposited data

Results flagged for a closer look

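The red response of 28 of the features named here differed between phyAphyB and at least 1 other genotype by limma's test of the difference itself, with n = 3 arrays per group and values given as phyAphyB minus the other genotype in log2 units. There were 59 such differences, 25 from wild type, 10 from phyA and 24 from phyB. Many features were named because they were called in these comparisons or changed most in wild type. The counts therefore follow in part from that choice and are no separate support. Of all tested probe sets 1.87% differed from wild type, 0.365% from phyA and 1.54% from phyB. EXO differed by 1.65 from wild type, 1.69 from phyA and 1.41 from phyB. AT4G01910, dim in phyAphyB in both lights, differed by 1.70, 1.70 and 1.48. The difference of AT4G01910 from phyA missed the threshold with the compared groups alone, with quantile normalization, with the pseudocount and without the dark phyA replicates 2 and 3 (adjusted p between 0.06 and 0.2), and that from phyB with the first 3 of these and without the red replicate 3 of either genotype (0.053 to 0.17). AT3G63340, also dim in phyAphyB, differed by -2.74 from wild type and -2.84 from phyB, and missed the threshold in both with the compared groups alone (0.1 each). BIM1 differed by -0.82 from wild type and -1.04 from phyB. Among probe sets with no gene name here, 256266_at differed by -1.40 from wild type, -1.28 from phyA and -1.19 from phyB, 252414_at by -0.90 from wild type and -0.97 from phyB, and 258239_at by -1.14 from phyB.

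Other negative differences from wild type were -2.88 for AT3G02910, -3.97 for SNZ, -2.13 for AT1G06000, -2.72 for AT1G64500, -1.83 for AT5G15950, -2.40 for AT3G21670, -1.94 for AT4G24700, -1.99 for UGT78D2, -1.75 for SWEET17, -1.2 for AT4G16980, -1.47 for AT3G16800 and -1.96 for AT3G56290. Positive ones from wild type were 1.69 for AT5G18600, 1.71 for AT4G10910, 0.88 for ARLA1C, 0.88 for AT4G11610, 1.2 for AT5G38710, 1.02 for GH3.3 and 0.80 for HAT2. From phyA the differences were -1.28 for AT5G15950, -1.35 for SWEET17, -1.13 for AT4G16980 and -1.11 for AT3G16800 downward and 0.89 for ARLA1C, 0.74 for AT4G11610 and 1.00 for AT5G17850 upward. From phyB they were -2.78 for AT3G02910, -3.27 for SNZ, -2.01 for AT1G06000, -2.39 for AT1G64500, -1.76 for AT5G15950, -2.43 for AT3G21670, -1.68 for AT4G24700, -1.90 for UGT78D2, -1.21 for SWEET17, -0.86 for AT4G16980, -1.22 for AT3G16800 and -2.27 for AT3G56290 downward, and 1.19 for AT5G18600, 1.1 for AT4G10910, 0.62 for AT4G11610, 1.15 for AT5G38710 and 1.16 for AT3G09160 upward. Of the 59, 38 passed in every setting run and without each array in turn. The exceptions not described with their settings above were the differences from wild type of AT5G38710, which missed the threshold without 7 of the 12 arrays compared (0.052 to 0.085), and ARLA1C, without 1 (0.051), and the differences from phyB of AT1G06000, AT4G11610 and AT4G16980. The last 3 missed it without 6, 6 and 11 of the 12 arrays (up to 0.083, 0.083 and 0.15), with the compared groups alone for AT1G06000 and AT4G11610 (0.1 and 0.053), and with no filter or no intensity trend for AT4G16980 (up to 0.1).

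Among the control probe sets left out of the tests, the 1 for 25S ribosomal RNA had a mean signal 2.13 times as high on the red as on the dark phyAphyB arrays, and the arrays of the 2 lights did not overlap. Its part in the red response was not tested.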

How the results depend on the processing

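The count of 46 calls in phyAphyB was 24 with the compared groups alone and 107 with array weights (74 lower and 33 higher), and 24 to 31 without 1 array. The other 7 settings gave 33 to 46. Of the 46 calls, 15 passed in all 9 settings, 15 without each array in turn, and 8 in both. The count of 17 at 2-fold or more was 11 with the 60th percentile filter, 23 with array weights and 13 to 17 without 1 array. With array weights the differences from wild type, phyA and phyB rose from 282, 55 and 232 to 578, 348 and 418, and the dark differences from 1694 to 2827. Without 1 array they were 206 to 276, 40 to 150, 171 to 213 and 1179 to 1438. The cause of these shifts was not tested, except that leaving out arrays leaves fewer samples. The retained share of 12.0% stayed within its spread between replicate numbers in every setting run, at 11.3% to 13.6% without 1 array (rises 8.5% to 11.0%, falls 29.3% to 37.7%). It was not run without the intensity trend.

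The replicate numbers do not pair the samples. Deviations from the group means of same-numbered dark and red phyAphyB arrays correlated at -0.17 to 0.04, and 2 of the 6 arrays correlated best with their own number. With the replicate number as a block 42 probe sets were called, all among the 46. The differences of AT3G09160, AT5G38710 and AT4G16980 from phyB missed the threshold with the block (adjusted p = 0.055, 0.059 and 0.061).

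Signs turned only for changes that were not called. In phyAphyB, UGT78D2 was 0.015 with quantile normalization, and with array weights AT3G21670 was 0.020, AT5G18600 0.014 and AT5G38710 -0.0087. Without 1 array the changes ranged from -1.41 to 0.061 for SNZ, -0.073 to 0.22 for AT4G24700, -0.20 to 0.14 for UGT78D2, -0.20 to 0.13 for AT5G18600, -0.048 to 0.053 for AT4G10910, -0.30 to 0.069 for AT3G09160 and -0.039 to 0.11 for AT5G38710. The differences from wild type ranged from -0.018 to 0.23 for AT3G17120, -0.056 to 0.21 for AT1G27930 and -0.082 to 0.36 for FHL. Signal over background limits the dimmest probe sets, where arrays of a group vary most.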

Other observations

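Of the genes named here, 3 that went down in red light lie close together on chromosome 5 in the order of the gene table, AT5G02540, AT5G02550 and AT5G02580, at places 208, 209 and 212. The grouping was noticed after the values were seen and was not tested. AT5G02580 fell by 1.67 and AT5G02550 by 0.70 in phyAphyB, while AT5G02540, a short-chain dehydrogenase family gene, changed by -0.59 without passing (limma, adjusted p = 0.23). In wild type the log2 changes were -2.42, -0.94 and -0.82.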
